A study of Mus musculus with 12 samples.

Results

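The transcripts of 10 enzymes of glycolysis were followed through mouse muscle cell populations on Affymetrix Mouse 430A arrays, which measure each gene with 1 or more sets of short probes. The 10 genes were Hk1 and Hk2 (hexokinase), Pfkl and Pfkm (phosphofructokinase), Aldoa (aldolase), Pgam1 and Pgam2 (phosphoglycerate mutase), Eno1 and Eno3 (enolase) and Ldha (lactate dehydrogenase). Every probe set that the platform annotation assigns to exactly 1 of them was taken, which gave 14 probe sets of 9 genes, out of 20380 probe sets of 12393 genes with a single gene on the array. Eno1 was not analysed here, because no probe set was assigned to it alone. Hk2, Pfkm, Pgam2 and Eno3 are the isoforms typical of muscle. Hk1, Pfkl, Pgam1 and Eno1 are their broadly expressed counterparts, while Aldoa and Ldha have no partner among the 10.

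All cells came from hind limb muscles of C57BL/6J mice aged 8 to 12 weeks, and each group had 4 arrays. Activated satellite cells (ASC) were cells positive for SM/C-2.6, a surface antibody for muscle satellite cells, kept in culture for 4 days in DMEM with 20% FCS and 2.5 ng/ml bFGF, where the labels give more than 99% of cells as positive for MyoD. Quiescent satellite cells (QSC) were SM/C-2.6 positive cells taken straight after the sort, of which more than 97% were positive for Pax7. Non-myogenic cells (NMC) were negative for both SM/C-2.6 and the leukocyte antigen CD45, were also taken straight after the sort, and held less than 1% myogenic cells. Since the ASC group alone was cultured, activation cannot be told apart from culture and from the time since sorting. Whether the replicates of a group are separate animals, sorts or cultures is not stated in the labels, and p-values cover only the variation among these 12 arrays, which may be technical.

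Glycolysis breaks glucose down to pyruvate, and lactate dehydrogenase interconverts pyruvate and lactate while recycling the cofactor NAD. Several steps are run by isoenzymes from separate genes, and skeletal muscle switches during its development from broadly expressed isoforms to muscle isoforms of phosphofructokinase, phosphoglycerate mutase and enolase. Quiescent satellite cells are known for low metabolic activity, and proliferating myoblasts for high glycolytic flux.

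Pax7 and Myod1 followed the labels of the groups, while other muscle markers did so less clearly. Pax7, the satellite cell transcription factor, averaged 90.2 ± 31.7 in ASC, 1071 ± 572 in QSC and 4.07 ± 2.42 in NMC (scaled signal, SD, n = 4 each). Myod1, the myoblast factor, averaged 4629 ± 1244 in ASC, 1277 ± 328 in QSC and 36.2 ± 3.96 in NMC. Des, a muscle filament gene, was alike in ASC (1350 ± 69.2) and QSC (1341 ± 496) and lower in NMC (257 ± 133). Ckm, the muscle creatine kinase, was highest in NMC, at 3281 ± 1562, beside 796 ± 308 in QSC and 75.0 ± 66.2 in ASC. Scaled signal is the deposited array intensity multiplied so that all arrays share a trimmed mean of 235, and it ranks a gene between arrays but not against another gene. Of the 12 arrays, 5 were labelled with a small-sample kit (ASC 1 and 2, QSC 1 and 2, NMC 1) and 7 with a two-cycle kit. The kit was a term in the main fits of single probe sets, but not in the tests of isoform pairs. The ratio of the 3' to the 5' control probe sets of Gapdh, a measure of RNA integrity and of amplification length, was 1.40 to 2.14 in ASC, 3.06 to 5.36 in QSC and 3.27 to 5.23 in NMC. It moved with the ASC group as the results below do, and its part in them was not tested.

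Activated satellite cells carried more transcript of 6 of the 9 glycolytic genes than quiescent cells: Pfkl, Aldoa, Pgam1, Pgam2, Eno3 and Ldha. Of these, Pgam2 was not called with both kits: its log2 change was 3.79 on the small-sample arrays and 0.12 on the two-cycle arrays. Here and below, a difference between kits within a group cannot be told apart from a difference between the cell samples labelled with them. Hk1 was lower, while Hk2 and Pfkm did not pass the test. In limma, at a Benjamini-Hochberg adjusted p under 0.05 over 12072 tested probe sets, 10 of the 14 probe sets were higher in ASC than in QSC, 1 was lower and 3 were not called. Over all tested probe sets 30.7% were called higher and 37.6% lower in this comparison. The median log2 change of the 9 genes was 1.74, beside -0.12 over all tested probe sets. For 9 of the 14 probe sets the lowest ASC array lay above the highest QSC array, where 51.3% of all tested probe sets had arrays that did not overlap in either direction. All 14 probe sets passed the filter on low signal. In arrays of bulk RNA, fewer cells of a type and less RNA per cell cannot be told apart.

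**Figure D1:**
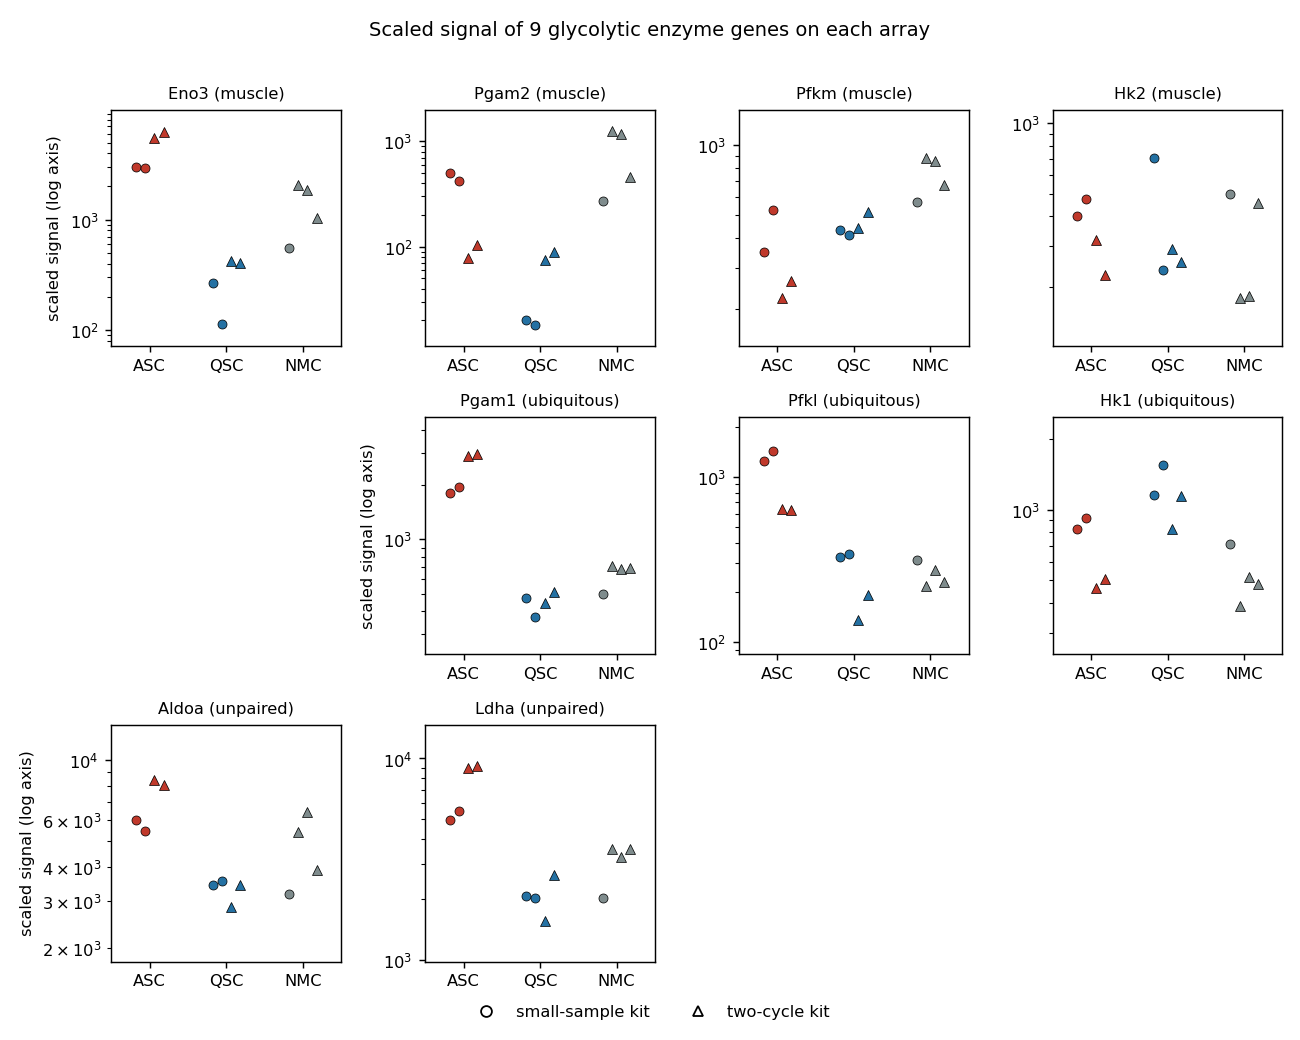
Scaled signal of the 9 glycolytic genes on each array, on log axes whose ranges differ between panels, at the probe set with the highest mean of each gene. Circles are small-sample arrays and triangles two-cycle arrays. The 4 ASC arrays of Eno3, Pgam1, Pfkl, Aldoa and Ldha lie above all 4 QSC arrays. For Pgam2 the ASC and the QSC arrays split by kit in opposite directions.

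The first step, carried out by hexokinase, was the one step at which no transcript was called higher in ASC than in QSC. Hk1, the broadly expressed hexokinase, gave a scaled signal of 825, 919, 465 and 507 on the 4 ASC arrays, 1158, 1544, 828 and 1141 on the QSC arrays, and 718, 389, 517 and 483 on the NMC arrays. QSC arrays were the highest, and they overlapped the ASC arrays through the range of 828 to 919. Hk1 was lower in ASC than in QSC by 1.74-fold, a log2 change of -0.80 ± 0.16 (SE, adjusted p = 0.00065 in limma). The call was lost with arrays centred on their median, at -0.25 (adjusted p = 0.162), and within the small-sample arrays alone, at -0.61 (adjusted p = 0.0733). A second Hk1 probe set, 1420901_a_at, was not called, at -0.54 ± 0.30 (adjusted p = 0.126). It was 0.10 on the small-sample arrays and -1.17 (adjusted p = 0.0212) on the two-cycle arrays, and it was called without ASC 2, at -0.76 (adjusted p = 0.0396), without both small-sample ASC arrays, at -1.02, and with array weights, at -0.83. Between ASC and NMC the change of Hk1 was 0.17 ± 0.17 and was not called, while with arrays centred on their median it was 0.72 (adjusted p = 0.000685), and 0.86 (adjusted p = 0.0172) at the second probe set. In QSC it was higher than in NMC by 1.96-fold, and QSC lay above all NMC arrays at both Hk1 probe sets. The call at the second probe set was lost without QSC 3 or 4 or NMC 1, 2 or 3, with an adjusted p of 0.0531 to 0.118, and on the small-sample arrays neither probe set was called, at 0.88 and 0.57.

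Hk2, the insulin-responsive hexokinase of muscle, gave 399.9, 475, 318 and 225 in ASC, 713, 236, 289.6 and 255 in QSC, and 497, 179, 183 and 455 in NMC. The spread within each group was as wide as the difference between groups, and the 3 groups overlapped. Its log2 change between ASC and QSC was 0.03 ± 0.33, with a 95% confidence interval of -0.67 to 0.73. Between ASC and NMC it was also 0.03 ± 0.33, with an interval of -0.69 to 0.74. The first interval runs from 0.627-fold to 1.66-fold. Hk2 was not called in any of the 3 comparisons or under any alternative setting tried.

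At phosphofructokinase, the committed step of glycolysis, Pfkl was higher in ASC than in QSC, and Pfkm was not called in that comparison. Pfkl, the liver-type subunit, gave 1244, 1430.2, 639.9 and 634 in ASC, 328, 342, 136 and 192 in QSC, and 313, 218, 272 and 230.3 in NMC. The lowest ASC array was above every QSC and every NMC array. Pfkl was 3.77-fold higher in ASC than in QSC, a log2 change of 1.92 ± 0.17 (adjusted p = 3.34e-07), and 2.99-fold higher than in NMC. A second Pfkl probe set, 1450269_a_at, rose by 1.47 ± 0.14 in ASC against QSC. Between QSC and NMC neither probe set was called, at -0.33 and -0.14. The first was called without NMC 1, at -0.54 (adjusted p = 0.0211), and on the two-cycle arrays alone, at -0.52 (adjusted p = 0.0375). With unscaled signal both were called, at -0.70 and -0.50.

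Pfkm, the muscle-type subunit, gave 350.4, 526, 222 and 262 in ASC, 432, 414, 442 and 519.7 in QSC, and 568, 882, 855 and 673 in NMC. All 4 NMC arrays were above all ASC and QSC arrays. Within ASC the small-sample arrays 1 and 2 lay above the two-cycle arrays 3 and 4. Pfkm was 2.26-fold lower in ASC than in NMC, at -1.17 ± 0.24 (adjusted p = 0.000599), and 1.64-fold lower in QSC than in NMC, at -0.71 ± 0.24 (adjusted p = 0.024). The first of these was -0.39 (adjusted p = 0.355) within the small-sample arrays, where the single NMC array is assumed to vary like the others, and -1.67 within the two-cycle arrays. The second lost its call without QSC 3 (adjusted p = 0.0506), NMC 2 (0.0651) or NMC 3 (0.0614). Between ASC and QSC the change of -0.46 ± 0.23 was not called (adjusted p = 0.0933, 95% interval -0.97 to 0.04). It was 0.02 on the small-sample arrays and -0.95 (adjusted p = 0.00222) on the two-cycle arrays, and it was called without ASC 2, at -0.70 (adjusted p = 0.00817), and with array weights, at -0.65 (adjusted p = 0.0312).

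Aldoa, the aldolase of muscle and of many other tissues, was read by 4 probe sets. The brightest of them, 1416921_x_at, gave 5992, 5436, 8436 and 8066 in ASC, 3425, 3559.9, 2853 and 3427 in QSC, and 3182, 5428, 6409 and 3915 in NMC. The ASC arrays were all above the QSC arrays and overlapped the NMC arrays. Aldoa was 2.07-fold higher in ASC than in QSC, at 1.05 ± 0.20 (adjusted p = 0.000326), and the other 3 probe sets gave 1.35, 1.25 and 1.33. It was 1.59-fold higher in ASC than in NMC (adjusted p = 0.00882), and that call was lost without NMC 1, at 0.51 (adjusted p = 0.0643). All 4 probe sets were called in both of these comparisons. Against NMC the probe set 1439375_x_at also lost its call without ASC 1, 3 or 4 or NMC 1 or 4, and 1433604_x_at without ASC 4 or NMC 1. None of them was called between QSC and NMC, where they lay between -0.38 and -0.60. On the two-cycle arrays alone all 4 were called lower in QSC than in NMC, at -0.72, -0.93, -1.12 and -0.97 (adjusted p = 0.0026 to 0.0227), while on the small-sample arrays they lay at 0.08 to 0.24. Without QSC 2 the probe sets 1434799_x_at (-0.64), 1439375_x_at (-0.77) and 1433604_x_at (-0.69) were called. The last was also called without NMC 1 (-0.81) or NMC 4 (-0.69), and 1439375_x_at without NMC 1 (-0.89). All 4 were called with unscaled signal. The _x_at suffix marks probes that can also bind other transcripts, so these 4 probe sets are not separate measurements of Aldoa.

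The phosphoglycerate mutase genes, whose products move a phosphate within phosphoglycerate, differed. The common isoform was higher on all ASC arrays, while the muscle isoform split by kit within ASC and, in the opposite direction, within QSC. Pgam1, the broadly expressed isoform, gave 1795, 1948, 2884 and 2949.5 in ASC, 475, 372, 446 and 513 in QSC, and 501, 711, 683 and 698 in NMC. The ASC arrays lay far above both other groups without overlap. Pgam1 was 5.07-fold higher in ASC than in QSC, at 2.34 ± 0.14 (adjusted p = 1.1e-08), and 3.85-fold higher in ASC than in NMC. It was 1.32-fold lower in QSC than in NMC, at -0.40 ± 0.14 (adjusted p = 0.0339). That small difference lost its call without QSC 2, 3 or 4 or without any one of the 4 NMC arrays, with an adjusted p of 0.0528 to 0.119.

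Pgam2, the muscle isoform, gave 496, 416, 78.2 and 103 in ASC, 20.2, 18.1, 74.9 and 88.3 in QSC, and 274, 1249.7, 1173 and 462 in NMC. On the small-sample arrays both ASC values were above both QSC values by more than an order of magnitude. On the two-cycle arrays the ASC and QSC values lay side by side. The QSC values were lower on the small-sample than on the two-cycle arrays, and the former were close to the added pseudocount of 14.7. Pooled over the kits, Pgam2 was 3.88-fold higher in ASC than in QSC, at 1.96 ± 0.63 (adjusted p = 0.0138), although the arrays of the groups overlapped. The change was 3.79 (adjusted p = 9.97e-05) within the small-sample arrays and 0.12 (adjusted p = 0.806) within the two-cycle arrays. The difference between these changes was 3.67 ± 0.54 (adjusted p = 0.00657), and Pgam2 was the 1 probe set of the 14 called in that test, where 4.66% of all tested probe sets were called. The pooled call was lost without ASC 1 (1.46, adjusted p = 0.0515), without ASC 2 (1.55, adjusted p = 0.0515), and without both (0.09, adjusted p = 0.83), and with array weights (1.36, adjusted p = 0.0854).

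In QSC, Pgam2 was 11.4-fold lower than in NMC, at -3.51 ± 0.64 (adjusted p = 0.000509), with no overlap of the arrays. Its change was -3.09 on the small-sample arrays and -3.22 on the two-cycle arrays, each smaller in size than the pooled value. The pooled fit shares a single kit term among all groups, so its value need not lie between those of the kits. Between ASC and NMC, Pgam2 was 2.94-fold lower in ASC, at -1.56 ± 0.64 (adjusted p = 0.0446). On the small-sample arrays the value in ASC was above that of the single NMC array, at 0.70 (adjusted p = 0.0756), while on the two-cycle arrays it was lower, at -3.10. The pooled call was lost without ASC 3 (-0.95), ASC 4 (-1.10), NMC 2 (-1.29) or NMC 3 (-1.32). It was also lost with no filter, with a smaller pseudocount, with median centring, with quantile normalization, with a trended and robust prior and with the replicate block, at an adjusted p of 0.0671 to 0.144.

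The sequences before the 2 mutase genes are shown because the common and the muscle isoform of this step followed the groups differently. They run from 250 bases before to 50 bases after the annotated start, on the strand of the gene, in the RefSeq annotation of GRCm38.p6. Capitals mark matches, on either strand, to ACGTG, the core letters of a hypoxia response element, or to CAGCTG, an E-box of the kind that myogenic factors bind. The window of Pgam1 at chr19:41911621-41911920 (plus strand) held 1 match to ACGTG, and that of Pgam2 at chr11:5803747-5804046 (minus strand) held 1 match to CAGCTG.
Pgam1: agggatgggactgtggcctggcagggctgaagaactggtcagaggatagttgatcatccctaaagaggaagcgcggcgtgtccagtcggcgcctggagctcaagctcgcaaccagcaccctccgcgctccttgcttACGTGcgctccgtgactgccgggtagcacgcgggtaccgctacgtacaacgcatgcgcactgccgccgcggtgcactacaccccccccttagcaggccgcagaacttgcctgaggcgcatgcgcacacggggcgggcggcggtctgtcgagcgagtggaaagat
Pgam2: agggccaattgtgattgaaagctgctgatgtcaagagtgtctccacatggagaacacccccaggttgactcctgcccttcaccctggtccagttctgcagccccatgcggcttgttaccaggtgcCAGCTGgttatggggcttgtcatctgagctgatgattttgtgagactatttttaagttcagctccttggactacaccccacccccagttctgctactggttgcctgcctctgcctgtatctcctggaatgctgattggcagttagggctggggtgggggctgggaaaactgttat

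Enolase gave the largest difference between the satellite cell states among the 14 probe sets. Eno3, the muscle enolase, gave 2991, 2969, 5509.6 and 6219.7 in ASC, 268, 113, 423 and 404 in QSC, and 548, 2049, 1863 and 1041 in NMC. The 3 groups did not overlap, with ASC highest, NMC in the middle and QSC lowest. Eno3 was 14.7-fold higher in ASC than in QSC, with a 95% confidence interval of 10.1-fold to 21.4-fold (log2 change 3.88 ± 0.25, adjusted p = 2.13e-08). The change was 3.98 within the small-sample arrays and 3.78 within the two-cycle arrays, so Eno3 rose by a similar amount with both kits. Eno3 was 4.18-fold higher in ASC than in NMC, at 2.06 ± 0.26. It was 3.51-fold lower in QSC than in NMC, at -1.81 ± 0.26 (adjusted p = 6.36e-05), a change of -1.56 (adjusted p = 0.0615) on the small-sample arrays.

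The window around the start of Eno3, at chr11:70656926-70657225 on the plus strand, is shown because this gene changed most. It held no match to ACGTG and 1 match to CAGCTG, in capitals, just after the start.
Eno3: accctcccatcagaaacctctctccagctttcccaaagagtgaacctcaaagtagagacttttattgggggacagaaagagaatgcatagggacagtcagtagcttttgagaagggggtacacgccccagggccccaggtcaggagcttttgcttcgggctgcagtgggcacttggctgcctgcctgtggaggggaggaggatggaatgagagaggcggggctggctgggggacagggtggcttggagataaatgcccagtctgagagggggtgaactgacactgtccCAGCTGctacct

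Ldha, the subunit of lactate dehydrogenase that predominates in fast muscle and in glycolytic cells, gave 4924, 5501, 9005 and 9163 in ASC, 2084, 2020.3, 1569 and 2629.9 in QSC, and 2033, 3544, 3254 and 3572 in NMC. The lowest ASC array was above the highest array of both other groups. Ldha was 3.35-fold higher in ASC than in QSC, at 1.74 ± 0.20 (adjusted p = 4.02e-06), and 2.47-fold higher in ASC than in NMC, at 1.30 ± 0.20 (adjusted p = 5.91e-05). The change against QSC was 1.34 within the small-sample arrays and 2.15 within the two-cycle arrays. Between QSC and NMC the change of -0.44 ± 0.20 was not called (adjusted p = 0.084). It was 0.01 on the small-sample arrays and -0.76 (adjusted p = 0.0153) on the two-cycle arrays. It was called with unscaled signal, at -0.84 (adjusted p = 0.0078), and with quantile normalization, at -0.53 (adjusted p = 0.0293).

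Ldha has 2 annotated starts, and the window of the first, at chr7:46845554-46845853 on the plus strand, is shown because it held the most matches to ACGTG among the members. The 5 matches include both strands of 2 palindromes CACGTG, each of which counts as 2.
Ldha: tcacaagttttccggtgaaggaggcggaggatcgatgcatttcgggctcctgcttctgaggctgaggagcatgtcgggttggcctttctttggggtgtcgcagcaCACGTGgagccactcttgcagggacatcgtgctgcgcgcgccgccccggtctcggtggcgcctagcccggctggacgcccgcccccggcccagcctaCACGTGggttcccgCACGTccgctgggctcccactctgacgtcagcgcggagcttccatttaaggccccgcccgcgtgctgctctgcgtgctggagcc

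The motif search covered 19 windows of the 10 genes, Eno1 included, since several genes have more than 1 annotated start. ACGTG was found in 8 of the 19 windows, against 19.6% of 32851 windows of 300 bases in the same RefSeq table. CAGCTG was found in 3 of 19 windows, against 16.3% of all windows, and TATAAA in 0 of 19, against 13.6%. The 3 windows with CAGCTG belonged to Aldoa, Pgam2 and Eno3. A match describes these letters only, and windows of 1 gene can overlap.

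Against non-myogenic cells, ASC carried more of 5 glycolytic genes (Pfkl, Aldoa, Pgam1, Eno3 and Ldha) and less of 2 muscle isoforms (Pfkm and Pgam2), of which the call of Pgam2 was lost or turned under the settings given above. Of the 14 probe sets 9 were called higher in ASC than in NMC, 2 lower and 3 not called, where 34.1% of all tested probe sets were called higher and 35.9% lower. The arrays did not overlap for 7 probe sets counted in either direction, 6 higher and 1 lower, where 58.4% of all tested probe sets did not overlap. QSC carried less than NMC of Pfkm, Pgam1, Pgam2 and Eno3, and more of Hk1. Of the 14 probe sets 2 were called higher in QSC than in NMC, both of Hk1, 4 were called lower and 8 were not called. The shares over all tested probe sets were 27.4% higher and 24% lower, and 38% had arrays that did not overlap. The 3 comparisons share arrays pairwise, so they are not independent of each other.

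**Figure D2:**
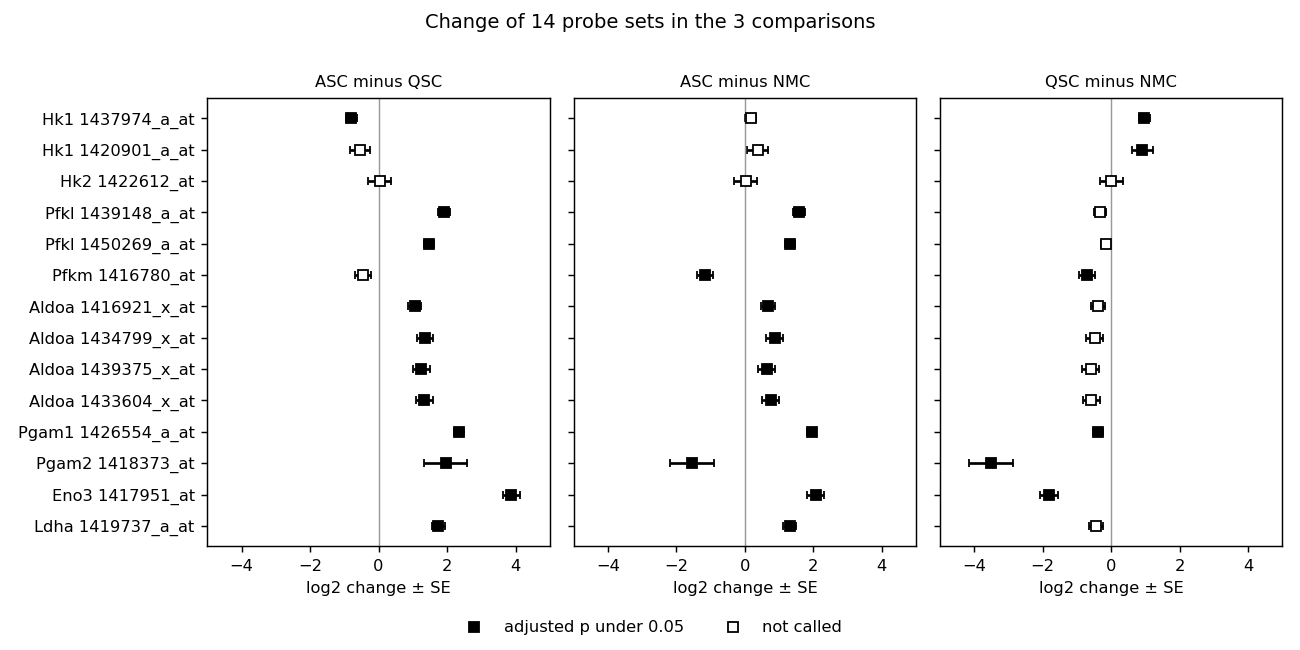
Log2 change with its standard error for the 14 probe sets of 9 glycolytic genes in ASC minus QSC, ASC minus NMC and QSC minus NMC. Filled squares were called at an adjusted p under 0.05, of which 11, 11 and 6 appear in the 3 panels, and Pgam2 has the widest error.

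The balance of muscle to ubiquitous isoform was set out per array as the log2 signal of the muscle isoform minus that of its partner, for the 3 pairs with both genes measured. Only its shift between groups can be read, because signals of different probe sets have no common scale. For phosphofructokinase, Pfkm minus Pfkl was -1.79, -1.42, -1.47 and -1.23 in ASC, 0.38, 0.26, 1.6 and 1.37 in QSC, and 0.83, 1.94, 1.6 and 1.49 in NMC. Every ASC array lay below every QSC and NMC array. The shift was -2.38 ± 0.36 (SE) between ASC and QSC and -2.94 ± 0.26 between ASC and NMC, each with p = 0.0286 in a two-sided exact permutation test of 4 against 4 arrays, the smallest p that this design allows. After Benjamini-Hochberg adjustment over 9 pair shifts these values became 0.0643. The shift between ASC and QSC was -1.92 on the small-sample arrays and -2.83 on the two-cycle arrays.

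Pgam2 minus Pgam1 was -1.83, -2.19, -4.96 and -4.66 in ASC, -3.81, -3.56, -2.36 and -2.36 in QSC, and -0.84, 0.80, 0.77 and -0.58 in NMC. The ASC arrays of the small-sample kit lay above all QSC arrays and those of the two-cycle kit below them. Between ASC and QSC the shift of -0.39 ± 0.90 did not pass (exact permutation p = 0.657), and it was 1.68 on the small-sample arrays and -2.45 on the two-cycle arrays. Against NMC the balance was lower without overlap, by -3.45 ± 0.92 for ASC and by -3.06 ± 0.58 for QSC (exact permutation p = 0.0286 each, 0.0643 adjusted). Hk2 minus Hk1 shifted by 0.82 ± 0.44 between ASC and QSC (exact permutation p = 0.114), by -0.13 ± 0.32 between ASC and NMC and by -0.95 ± 0.51 between QSC and NMC. None of the 3 hexokinase shifts had an unadjusted permutation p under 0.05, and the groups overlapped. After adjustment over the 9 pair shifts, no shift of any pair had a p under 0.05.

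**Figure D3:**
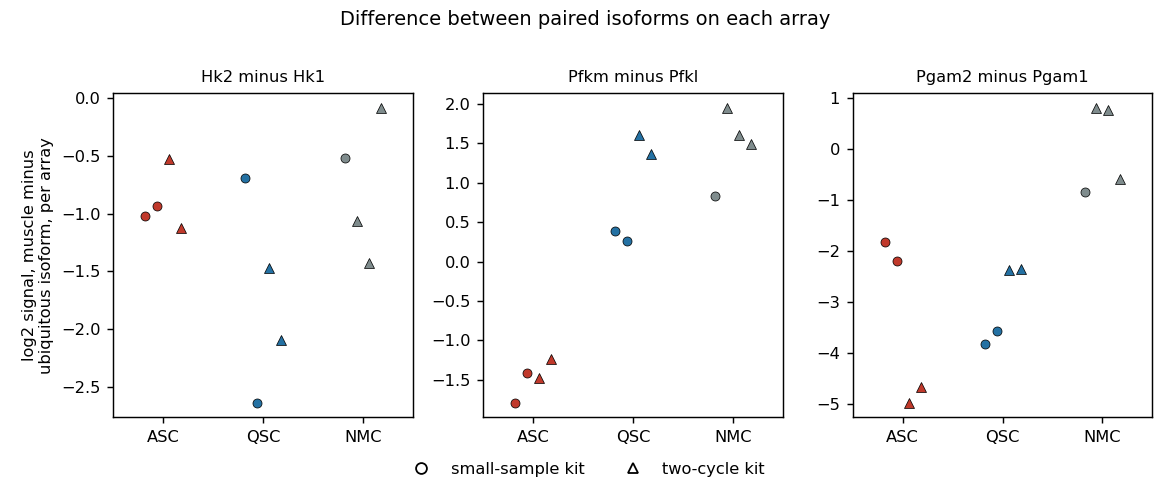
Log2 signal of the muscle isoform minus that of the ubiquitous isoform on each array, for hexokinase, phosphofructokinase and phosphoglycerate mutase, with circles for small-sample and triangles for two-cycle arrays. For phosphofructokinase all 4 ASC arrays lie below the QSC and NMC arrays. For phosphoglycerate mutase the ASC arrays and the QSC arrays each fall into pairs by kit.

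The kit split of Pgam2 ran alongside the summed signal of muscle fibre markers on the same arrays. The summed scaled signal of 22 myofibre markers, none of them a member, was 18126, 20945, 2079 and 2205 on the 4 ASC arrays, 7707, 4368, 11078 and 13296 on the QSC arrays, and 17322, 44553, 49508 and 24465 on the NMC arrays. None of the 22 was at 0 on all arrays. The sum was highest on the small-sample ASC arrays and the NMC arrays, and lowest on the two-cycle ASC arrays. Single markers did not all follow it: on the small-sample arrays the log2 change between ASC and QSC was 4.21 for Myl1, 4.02 for Mylpf and 3.39 for Myh1, against -3.63 for Myh4, -2.71 for Pvalb and -2.10 for Ckm. Of the 20 markers tested, 0 were higher and 7 lower in ASC than in QSC. Over all tested probe sets 30.7% were higher and 37.6% lower, so the lower share was near that of all probe sets. The 7 included Myh4, a fast myosin heavy chain (-4.54), and Pvalb, a calcium buffer of fast fibres (-3.41). Ckm, the muscle creatine kinase (-3.38), and its mitochondrial relative Ckmt2 (-2.28) were also among them. The median change of the 20 markers was 0.40 on the small-sample arrays and -2.76 on the two-cycle arrays. In ASC against NMC 16 of the 20 were lower, where 35.9% of all tested probe sets were lower. In QSC against NMC 10 were lower, where 24% of all tested probe sets were lower.

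Eno3 did not follow these markers across the ASC arrays: its signal was higher on the two-cycle arrays ASC 3 and 4, where the marker sum was lowest. Eno3, Pgam2 and Pfkm were each lower in QSC than in NMC, as the marker sum was. The part of the myofibre markers in the NMC values of these 3 genes was not tested. Myog, a transcription factor of differentiating myoblasts, gave 4532, 1775, 444 and 369 in ASC, and 611, 477, 302 and 435 in QSC. Its signal on ASC 3 and 4 thus lay within the range of the QSC arrays. The sum of 17 genes of myogenic differentiation was 34591, 27369, 12663 and 12469.8 on the ASC arrays, 3322 to 5091 in QSC and 1779.7 to 3393 in NMC, so it too was higher on the ASC arrays with high Pgam2. Of the 15 differentiation genes tested, 13 were higher in ASC than in QSC, where 30.7% of all tested probe sets were higher. Chrng, Tnnt2, Chrnd and Chrna1 came first by adjusted p. The median change of the 15 was 3.84 on the small-sample arrays and 0.78 on the two-cycle arrays.

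Markers of other cell types also differed between the groups. The sum of 12 endothelial markers was 109 to 174 in ASC, 4034 to 6238 in QSC and 17459 to 20444 in NMC. The sum of 11 fibroblast markers was 1573 to 2015 in ASC, 12297 to 22153 in QSC and 44793 to 80674 in NMC. The leukocyte sum was 279 to 299.6 in ASC, 295 to 2917 in QSC and 408 to 733 in NMC, and the erythroid sum was 43.7 to 144 in ASC, 41.5 to 82.9 in QSC and 367 to 1072 in NMC. None of these markers was at 0 on all arrays. Their part in the glycolytic values of QSC and NMC was not tested.

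**Figure D4:**
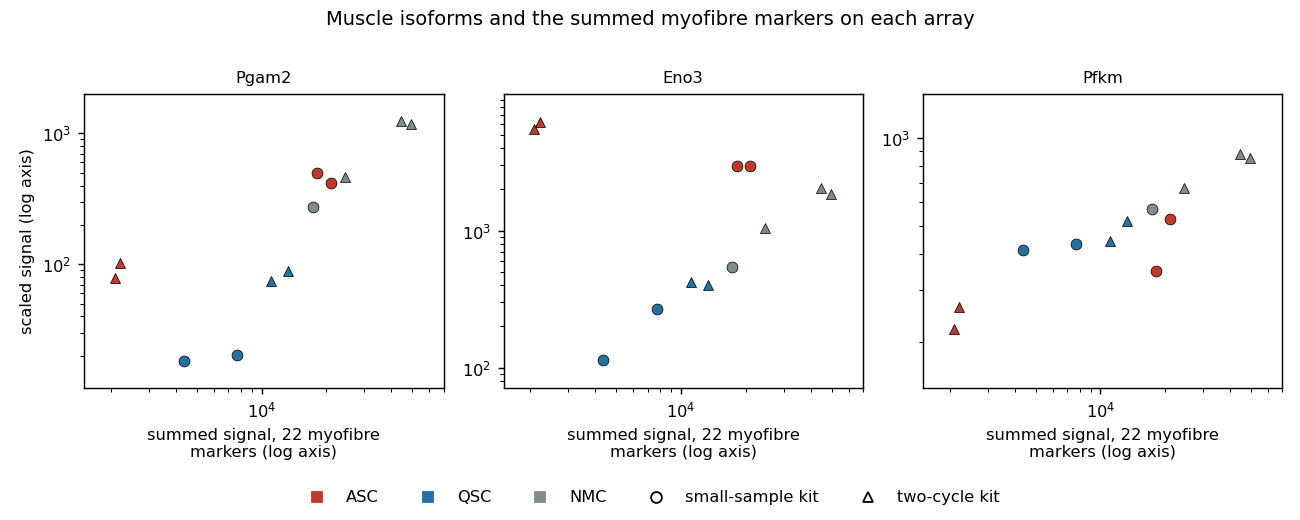
Scaled signal of Pgam2, Eno3 and Pfkm against the summed signal of 22 myofibre markers on the 12 arrays, on log axes, coloured by group, with circles for small-sample and triangles for two-cycle arrays. The ASC arrays lie at sums of 2079 to 20945, and their Pgam2 and Pfkm signals are higher at the higher sums while their Eno3 signals are lower.

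Eno3, Pgam1, Aldoa and Ldha moved closely together over the 12 arrays. As a description over arrays that share 3 groups and 2 kits, Pearson's r of log2 signal was 0.963 between Pgam1 and Ldha, 0.923 between Aldoa and Ldha, 0.91 between Pgam1 and Eno3, and 0.907 between Eno3 and Ldha. For Pgam2 the r was 0.189 with Pgam1, 0.233 with Ldha, 0.346 with Aldoa, 0.527 with Eno3 and 0.634 with Pfkm. Among all tested probe sets of other genes, the patterns most like Pgam2 were those of the fast-fibre troponin Tnnt3 (0.978), the fast myosin light chain Mylpf (0.97) and Slco3a1 (0.947). Those most like Eno3 were Trim54 (0.985), 2610001J05Rik (0.979) and Usp24 (0.977). Those most like Ldha were the mitochondrial import and assembly genes Timm13 (0.985) and Samm50 (0.982) and the proteasome subunit gene Psmb5 (0.98). Hk2 had no pattern as close, with Plk2 (0.85), Id4 (0.8) and Sppl3 (0.779).

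Within each kit alone the comparison of ASC with QSC kept its direction for most members. Of all tested probe sets 48.7% were called on the small-sample arrays alone and 65.2% on the two-cycle arrays alone. Pfkl, Aldoa, Pgam1, Eno3 and Ldha were called higher in ASC with either kit. Pfkl rose by 1.95 on the small-sample arrays and by 1.88 on the two-cycle arrays. Pgam1 rose by 2.11 on the small-sample arrays and by 2.57 on the two-cycle arrays, and Aldoa by 0.71 and by 1.40 in the same order of kits. Hk1 was called on the two-cycle arrays alone, at -0.98 (adjusted p = 0.00286).

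Of 14 other glycolytic enzyme genes 9 had a probe set and 5 passed the filter. Of those 5, 3 were higher in ASC than in QSC and 0 lower, where 30.7% of all tested probe sets were higher and 37.6% lower. Tpi1, triose phosphate isomerase, averaged 2882 ± 394 in ASC and 744 ± 41.4 in QSC, a log2 change of 1.92 ± 0.15 (adjusted p = 1.37e-07). Pkm, pyruvate kinase of muscle and many other tissues, averaged 5670.0 ± 1656 in ASC and 2002 ± 344 in QSC, a change of 1.46 ± 0.18. Pgk1, phosphoglycerate kinase, changed by 0.78 ± 0.18. The platelet-type phosphofructokinase gene Pfkp (-0.14) and Ldhb (-0.10), which encodes the heart-type subunit, were not called. In ASC against NMC the same 3 of 5 were called higher, where 34.1% of all tested probe sets were higher. In QSC against NMC Pkm and Pgk1 were higher and Tpi1 lower, where 27.4% of all tested probe sets were higher and 24% lower.

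Of 28 genes for glucose uptake, lactate export and control of the pathway, 25 were on the array and 19 tested. In ASC against QSC 8 were higher and 7 lower, where 30.7% of all tested probe sets were higher and 37.6% lower. Txnip, whose product restrains glucose uptake, averaged 24.5 ± 12.2 in ASC and 2138 ± 1359 in QSC, a log2 change of -5.57 ± 0.32. Slc2a3, the glucose transporter GLUT3, averaged 71.9 ± 25.9 in ASC and 589 ± 268 in QSC, a change of -2.73 ± 0.20. Gpd2, the mitochondrial glycerol phosphate dehydrogenase, was higher by 2.35 ± 0.21, and Pdk3, a kinase that inhibits pyruvate dehydrogenase, by 1.68 ± 0.17. Slc2a1, the glucose transporter GLUT1, was not called, at -0.09 ± 0.17. In ASC against NMC 7 of the 19 were higher and 7 lower, near the 34.1% higher and 35.9% lower of all tested probe sets. In QSC against NMC 4 were higher and 3 lower, with Pdk4 (2.71) and Slc2a3 (2.42) among the higher. The shares over all tested probe sets in that comparison were 27.4% higher and 24% lower.

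Glycolytic genes are known targets of the hypoxia-inducible factor, so other genes of the hypoxia response were listed beside them. The list also held genes of the factor itself, such as Hif1a, and was not limited to its targets. Of 20 such genes without glycolytic enzymes 14 were tested, and 2 were higher in ASC than in QSC, 9 lower and 3 not called, with a median change of -0.96, where 30.7% of all tested probe sets were higher and 37.6% lower. Egln3, an oxygen-sensing prolyl hydroxylase, was higher by 3.32 ± 0.15. Ndrg1, a stress-response gene, changed by -4.28 ± 0.22, the collagen prolyl hydroxylase gene P4ha2 by -1.64 ± 0.14, and the histone demethylase gene Kdm3a by -1.68 ± 0.18. Hif1a itself was not called, at 0.11 ± 0.20. In ASC against NMC 2 of the 14 were higher and 8 lower, where 34.1% of all tested probe sets were higher and 35.9% lower. In QSC against NMC 2 were higher and 4 lower, where 27.4% of all tested probe sets were higher and 24% lower.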

How the data were processed

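Total RNA of 12 sorted or cultured cell samples was hybridised to Affymetrix Mouse 430A arrays. The deposited values are probe set intensity on a linear scale, made by the authors with MAS5 per the submitters' processing notes, whose version is not given in the sources used here. Each array was scaled to a mean, trimmed by 2% at each tail, of 235.14, because the deposited trimmed means lay at 323 to 502 on the small-sample arrays and 160 to 236 on the two-cycle arrays. A pseudocount of 14.696 (1/16 of the common level) was added before taking log2, and fold changes on this log2(signal + pseudocount) scale come out too small where signal is low. Of 22690 probe sets, 20380 with 1 gene in the platform annotation were kept (20364 matched by Entrez ID to RefSeq), and the rest (691 assigned to more than 1 gene, 1555 unnamed and 64 controls) were left out. The 12072 probe sets with a mean scaled signal of at least 47.028 were tested.

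Groups were compared with limma 3.58.1 in R 4.3.3 on all 12 arrays with terms for group and kit, which leaves 8 residual degrees of freedom. Isoform pairs were compared by exact permutation tests, which did not take the kit into account. In counts of genes, the brightest probe set (by mean log2 signal) stands for its gene. The number of arrays limits the precision. Tested on simulated data for ASC against QSC over 12072 probe sets with 200 changed, 74% of the 2-fold changes and 97% of the 4-fold changes were recovered, and 6 unchanged probe sets were called. The simulation had normal noise and the same kit effect in all groups. In the real comparison 8248 probe sets were called, and 563 differed between kits. The simulated shares therefore do not measure the recovery or the false calls of the real comparison. The design had planned 4 isoform pairs, and 3 could be made, since Eno1 was not analysed here.

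Named were all 14 probe sets, up to 4 members of each list by adjusted p in each comparison, a fixed set of identity genes and the 3 genes most like each of 4 members. Ldhb, Slc2a1, Hif1a, Des and Myh1 were named after their values were seen. The myofibre markers set out by their change on the small-sample arrays were chosen with those values known. The members and lists were chosen with earlier results of these data known. Without detection calls, no background limit could be given for a gene. Deviations from the group mean of same-numbered arrays had an r of 0.17 to 0.31 between ASC and QSC and of -0.39 to 0.40 between either and NMC, but same-numbered ASC and QSC arrays also share a kit. Within a kit, the difference between the paired numbers had an r between groups of 0.02 (ASC and QSC, small-sample), -0.15 (ASC and QSC, two-cycle), 0.11 (ASC and NMC, two-cycle) and -0.14 (QSC and NMC, two-cycle). The numbers were not used to pair arrays, and the fit with them as a block is given under the alternatives. Promoter windows came from RefSeq, and figures were drawn with Python 3.11.15 and matplotlib 3.10.9.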

Additional observations from a re-analysis of the deposited data

Results flagged for a closer look

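On the log2 scale, 3 of 51 groups of 4 values lay with 1 array far from the other 3 by Dixon's gap test at its 95% critical value, and chance marks about 1 in 20 groups. All 3 were on array NMC 1, the only NMC array labelled with the small-sample kit. The Pfkl probe set 1450269_a_at stood at 7.83 on NMC 1, above 7.24 to 7.29 on the other NMC arrays. Pgam1 stood at 9.01 on NMC 1, below 9.45 to 9.50 on the others. Ldha stood at 11.0 on NMC 1, below 11.67 to 11.81 on the others.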

How the results depend on the processing

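Over 56 results for the members and 1514 settings, 1415 stayed on their side of the threshold (53 of them, none called, with the other sign), 57 lost the call, 41 gained one and 1 reversed. The reversal was Pgam2 in ASC against NMC within the small-sample arrays alone, at 0.70. Pfkl, Aldoa, Pgam1, Eno3 and Ldha stayed called in ASC against QSC under every setting tried. The probe sets called in ASC against QSC numbered 8248, against 5396 with a gene's probe sets averaged (fewer features tested) and 7762 to 8224 with 1 array left out. In ASC against NMC 8450 became 5281 on the small-sample arrays and 5554 with probe sets averaged, and 7872 to 8644 with 1 array left out. In QSC against NMC 6202 became 2072 on the small-sample arrays and 4121 with probe sets averaged, and 5567 to 6147 with 1 array left out. The difference between kits in ASC against QSC was called for 563, and for 229 without a filter, 323 with quantile normalization, 349 with probe sets averaged, 327 with array weights, 292 with only the 2 groups, 176 with the replicate block, and 91 (without ASC 4) to 1044 (without QSC 1) with 1 array left out, and it moved by over 1.5 times without any one ASC array, QSC 1, 2 or 3, or NMC 2 or 3. The cause of these differences was not tested. The shift of Pfkm minus Pfkl in ASC against NMC was -2.43 on the small-sample arrays. That of Pgam2 minus Pgam1 was 1.68 and -2.45 in ASC against QSC, and -1.17 and -5.14 in ASC against NMC, each time on the small-sample arrays first and the two-cycle arrays second. With the replicate block the 3 counts were 7816, 7760 and 4948, and the block ended the calls of Pgam2 in ASC against NMC (-1.33) and of Pfkm (-0.69) and Pgam1 (-0.37) in QSC against NMC, and those of 1 further probe set each of Aldoa in ASC against NMC (0.66) and Hk1 in QSC against NMC (0.71); it changed no other call of a member. Scaling moved the median of all probe sets: median centring by 0.53 in ASC against QSC and in ASC against NMC, and unscaled values by 0.28 in ASC against QSC and by -0.36 in QSC against NMC. Called probe sets that were higher made up 45% in ASC against QSC, and 68.9% with median centring and 59.4% unscaled. In ASC against NMC the share was 48.8%, and 69.1% with median centring. In QSC against NMC it was 53.4%, and 23.4% unscaled. Relative to the median of all probe sets, Hk1 in ASC against QSC stood at -0.68, and at -0.66 with median centring.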
